A study of Mus musculus with 6 samples.

Results

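The 10 genes described here are known from the lining of the airways and the air sacs, and were followed on arrays of mouse aorta: Scgb1a1, Scgb3a1, Scgb3a2, Cyp2f2, Wfdc2, Bpifa1, Sftpa1, Sftpb, Sftpc and Ager. They were chosen by their measured values in these samples, as genes of lung epithelium some of which differed between the genotypes, so their difference between genotypes is described here, and where they fall in the fit over all probes is no test of them. The probe annotation named 9 of them, with 12 probes, out of 19053 named genes and 45281 probes. Scgb3a2 was not analysed here.

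Thoracic aorta of male C57Bl/6 mice aged 3 to 4 months was profiled on 6 Illumina bead arrays. The 3 arrays called NDST came from mice of genotype SM22αCre+Ndst-/-, in which the SM22α promoter, active in smooth muscle, drives Cre and the deleted gene is Ndst1, an enzyme that modifies heparan sulfate chains. The 3 arrays called WT came from SM22αCre-Ndstwt/wt mice, which carry no Cre, so that the effect of Cre and that of the deletion cannot be told apart. The deleted gene is not analysed here and gives no check of the labels. The labels do not say whether each array is a separate mouse, so the spread between arrays may be technical.

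Club cells of the conducting airways secrete Scgb1a1, a small secretoglobin, and carry the cytochrome P450 Cyp2f2. Bpifa1 and Wfdc2 are secreted defence proteins of upper airway and gland epithelium. Alveolar type 2 cells make the surfactant proteins, including Sftpa1, Sftpb and Sftpc, and alveolar type 1 cells carry the receptor Ager on their surface. The transcription factor Nkx2-1 is active across lung epithelium, Foxj1 in ciliated cells. A healthy aorta has no epithelium of these kinds.

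The 250 bases before the start of 3 genes whose arrays separated by genotype are shown because they put the members' regulatory sequence beside their values. They come from RefSeq, build GRCm38.p6, are read 5′ to 3′ on the plus strand, and lie at chr2:154142630-154142879 (Bpifa1), chr2:164562465-164562714 (Wfdc2) and chr7:27119705-27119954 (Cyp2f2). Capitals mark TATAAA, the TATA box, or CAAGTG, a core of Nkx2-1 sites.
Bpifa1: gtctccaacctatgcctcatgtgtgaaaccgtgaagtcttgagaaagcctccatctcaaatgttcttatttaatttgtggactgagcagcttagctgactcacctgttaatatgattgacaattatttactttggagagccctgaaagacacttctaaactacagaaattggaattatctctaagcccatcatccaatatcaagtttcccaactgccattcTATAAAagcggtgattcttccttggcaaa
Wfdc2: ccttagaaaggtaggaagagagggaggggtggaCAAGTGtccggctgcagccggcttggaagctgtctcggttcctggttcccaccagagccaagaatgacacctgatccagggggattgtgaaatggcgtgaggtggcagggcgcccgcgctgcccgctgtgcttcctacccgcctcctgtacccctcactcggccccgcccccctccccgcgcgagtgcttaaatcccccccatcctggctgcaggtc
Cyp2f2: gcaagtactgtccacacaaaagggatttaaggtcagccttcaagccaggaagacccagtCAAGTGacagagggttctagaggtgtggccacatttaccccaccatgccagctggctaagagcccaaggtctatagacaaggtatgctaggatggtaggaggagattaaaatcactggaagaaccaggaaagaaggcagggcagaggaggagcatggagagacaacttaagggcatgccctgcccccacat
Bpifa1 has TATAAA starting 29 bases before its start, and CAAGTG begins 217 bases before that of Wfdc2 and 191 bases before that of Cyp2f2. Windows of Scgb1a1 and Sftpc were not used here, and that of Ager lies within the span RefSeq gives for the gene. Over the 7 members with such a window, searched on both strands, CAAGTG was in 4 (Cyp2f2, Scgb3a1, Sftpa1 and Wfdc2), against 11.6% of all 32851 windows. TATAAA was in 2 (Bpifa1 and Sftpa1), against 12.4% of all windows. The forkhead motif TGTTTAC was in 0 of the 7, against 3.2% of all windows, and the C/EBP motif TTGCGCAA in 0, against 0.2%. The letters TATATA, which can overlap those of the TATA box, were in 0, against 5.2%. A match is a run of letters and not a shown site.

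The array signal is an average bead intensity with a detection p-value per probe and array; a probe counts as detected below 0.05. Between 18063 and 18619 probes were detected on the NDST arrays and between 17549 and 18131 on the WT arrays. Log2 profiles of the kept probes correlated at 0.992 to 0.993 among NDST arrays, 0.991 to 0.992 among WT arrays and 0.983 to 0.984 between the genotypes, and no array stood apart. All 12 aortic smooth muscle genes on the list used to check the tissue label were kept, with a median difference of 0.04. Cald1 rose (0.75) and Lmod1 fell (-0.31), but the 5 kept Cald1 probes ranged from 0.13 to 0.75. Probes detected on at least 3 of the 6 arrays were kept, which left 17954. Of these, 776 were higher in NDST (4.32%) and 560 lower (3.12%) at an adjusted p under 0.05 (limma, Benjamini-Hochberg). Higher probes made up 58.1% of the calls, but 80.7% under median scaling, 88.9% without normalization between arrays, which moves the median difference of all probes to 0.13, and 40.8% in the authors' processed values. All 3 NDST values lay above all 3 WT values in 16.1% of kept probes, and below them in 16.3%.

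The club cell secretoglobin gave the largest difference among the members. The Scgb1a1 probe read 972.6, 1029.1 and 1035.1 on the NDST arrays and 271.4, 269.0 and 264.2 on the WT arrays, as non-normalized intensities. Every NDST array was above every WT array, and the probe was detected on all 6. The normalized log2 level was 9.76 ± 0.04 in NDST and 7.38 ± 0.07 in WT (SD, n = 3 each), a difference of 2.38 ± 0.07 (SE), or 5.21-fold. Among 10076 kept genes, each taken by its brightest kept probe, 23 had a difference at least as high, Scgb1a1 included. In RefSeq the gene lies on chr19:9083642-9087956 (GRCm38.p6).

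Bpifa1 and Wfdc2 were also higher in NDST, from dim signals. Bpifa1 read 206.4, 176.8 and 225.9 in NDST and 140.2, 157.5 and 157.0 in WT, and was detected on all 6 arrays. The lowest NDST array was above the highest WT array by a small margin. Its log2 level was 6.37 ± 0.39 in NDST and 5.41 ± 0.25 in WT (SD, n = 3 each), a difference of 0.96 ± 0.21 (SE), or 1.95-fold.
Wfdc2 read 188.7, 186.3 and 215.4 in NDST and 134.2, 153.4 and 151.1 in WT, where the array at 134.2 fell short of detection. The genotypes did not overlap. Its log2 level was 6.29 ± 0.20 in NDST and 5.20 ± 0.30 in WT (SD, n = 3 each), a difference of 1.09 ± 0.17 (SE), or 2.12-fold.
Wfdc2 and Bpifa1 lie on the same chromosome, at chr2:164562715-164568510 and chr2:154142880-154149217.

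Cyp2f2, the other club cell gene among the members measured above background, ran the opposite way. It read 298.2, 260.9 and 264.1 in NDST and 348.7, 320.8 and 356.9 in WT. All NDST arrays were below all WT arrays. Its log2 level was 7.24 ± 0.22 in NDST and 7.92 ± 0.13 in WT (SD, n = 3 each), a difference of -0.68 ± 0.13 (SE), so that it was 1.60-fold lower in NDST. Both of these members were detected on every array, and they differed in sign. Which cells of the samples gave either signal was not tested.

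The second secretoglobin, Scgb3a1, was at the level of undetected probes. Its first probe read 126.8, 130.7 and 138.6 in NDST and 137.6, 130.5 and 126.8 in WT, with 1 detection, on a WT array. Its second probe read 127.5, 128.1 and 138.3 in NDST and 129.9, 123.1 and 126.4 in WT, detected on no array. The genotypes overlapped for both, and the medians of all undetected probes were 126.3 to 133.3 on the NDST arrays and 123.2 to 128.7 on the WT arrays.

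The alveolar members gave almost no detected signal. The surfactant genes were detected in 1 of 24 readings (4 probes, 6 arrays): the second Sftpb probe on NDST array 2, at 142.1, beside 122.4 and 135.2 on the other NDST arrays and 123.3, 139.1 and 126.8 in WT.
Sftpc read 129.3, 134.5 and 134.7 in NDST and 103.4, 125.6 and 122.0 in WT, detected on no array. The first Sftpb probe read 134.5, 138.3 and 137.9 in NDST and 122.3, 128.4 and 131.7 in WT, again on no array. In both cases the NDST arrays lay above the WT arrays, below the lowest intensity of any detected probe on their array, so no fold is given.
Sftpa1 read 122.1, 122.0 and 131.6 in NDST and 121.6, 120.8 and 115.9 in WT, detected on no array. Ager had a probe detected on 2 arrays of each genotype, at 130.7, 153.4 and 149.7 in NDST and 149.8, 132.2 and 151.7 in WT. Its groups overlapped, with a log2 difference of -0.18 ± 0.27 (SE), and its second probe, at 130.5, 134.9 and 142.6 in NDST and 125.5, 127.4 and 128.6 in WT, was detected on none.

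**Figure D1:**
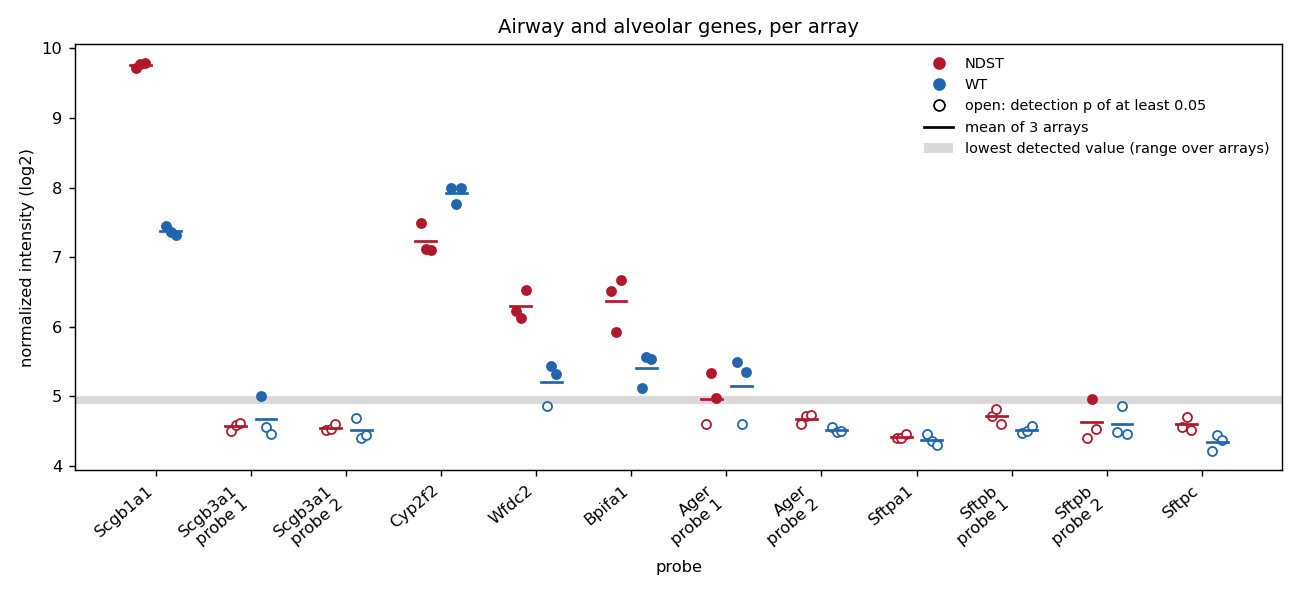
Normalized log2 intensity of the 12 member probes on each NDST (red, left) and WT (blue, right) array; points are arrays, bars the means of 3 arrays, open points readings not detected, and the grey band the range of the lowest detected value. Scgb1a1 stands at 9.76 in NDST and 7.38 in WT, and the surfactant probes lie at or under the band.

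Counted over the 12 probes, 4 were detected on all 3 NDST arrays and 3 on all 3 WT arrays, and 5 on no array. Detected readings numbered 15 of 36 in NDST and 14 of 36 in WT. Airway genes had 4 of 6 probes kept and alveolar genes 1 of 6. Past the threshold, 3 kept probes (Scgb1a1, Wfdc2 and Bpifa1) were higher and 1 (Cyp2f2) was lower, beside 4.32% and 3.12% of all kept probes; since the members were chosen on this contrast, nothing is read from these counts. The 7 member probes that were not kept differed by -0.10 to 0.25, with a median of 0.05, and 6 of them had a higher NDST mean (85.7%, against 48.8% of all 27327 probes not kept). For 3 of the 7 the genotypes did not overlap (42.9%, against 10.4%). These probes too belong to genes chosen on this contrast, so nothing is read from these shares either. The paired probes of Scgb3a1, Sftpb and Ager share a target, and all probes share the arrays.

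Other genes of lung and neighbouring epithelia were read from 9 lists that leave the members out. These lists, like the members, were drawn up with earlier results of these data known. Of 165 named genes, 63 had a kept probe; 4 rose (6.35%) and 2 fell (3.17%) in NDST, beside 4.61% and 2.74% of all 10076 kept genes. With 1 array left out, 2 to 5 passed: 5 without WT replicate 1, 3 without WT replicate 3 and 2 without any other. Their median difference was 0.12, against 0.005 for all kept genes. Detection differed between the lists. Of 18 lung epithelial transcription factors named, 6 were kept and 12 were detected on no array of either genotype, among them Nkx2-1, Foxa1, Foxa2, Foxj1 and Sox2. Of 24 ciliated cell genes, 6 were kept and 15 were on no array. Of 22 airway secretory and gland genes, 11 were kept and 10 were on no array. Of 23 alveolar type 2 genes, 15 were kept and 5 were on no array (Lamp3, Slc34a2, Cxcl15, Hc and Egfl6). Of 21 type 1 genes, 14 were kept and 3 were on no array (Cldn18, Clic3 and Sema3e). Being kept does not place a gene in alveolar cells: Scd1, Lyz1 and Cav1 had mean intensities of 30947.6, 6610.3 and 6777.9 in WT aorta. Of 22 general epithelial genes, 5 were kept and 9, with Epcam, Krt19 and Cldn3 among them, were on no array; Cdh1 and the others were detected on too few arrays to be kept.

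Among airway secretory and gland genes, 0 of 11 rose and 1 fell by limma's test (3 and 2 at an unadjusted p under 0.05), with a median of 0.12. The one that fell, Hp, the acute phase protein haptoglobin also made in liver and fat, differed by -0.97 ± 0.09 (SE, adjusted p = 0.00219). Aldh1a7 differed by -0.26, short of the threshold. Cyp4b1, a P450 of airway and endothelium, differed by 0.28 and Cldn10 by 0.35, neither past the threshold. The 3 kept Cldn10 probes ranged from -0.04 to 0.35. Ciliated cell genes had 6 kept, with a median of 0.24, and 1 that rose, 1110017D15Rik, at 0.67 ± 0.07 (adjusted p = 0.00433). Its other kept probe differed by -0.01. Tppp3 differed by 0.32, short of the threshold.

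Alveolar type 2 genes had 15 kept, with a median of 0.20, and 0 past the threshold (5 higher and 2 lower at an unadjusted p under 0.05, by limma). Ctsh, a protease that trims surfactant protein, differed by 0.29 and Abca3, a lipid pump of surfactant bodies, by 0.24, with other kept probes at 0.26 for Ctsh and 0.04 for Abca3; both are active in other cells. Alveolar type 1 genes had 14 kept, with a median of 0.12. At an unadjusted p under 0.05, by limma, 3 were higher and 3 lower. Only Hopx passed the threshold, with a rise of 0.60 ± 0.10 (adjusted p = 0.0181). Hopx is also a heart gene. Rtkn2 differed by -0.42 and Akap5 by 0.61, both short of the threshold. Igfbp2, by a probe on no WT array and so kept only through the NDST arrays, was at least 1.24-fold higher and did not pass. Pdpn, an alveolar type 1 surface protein also found on lymphatic vessels, differed by 0.18 and did not pass. Of the transcription factors, Gata6 rose by 0.44 ± 0.08 (adjusted p = 0.0255; its other kept probe differed by 0.14) and Sox9 by 0.52 ± 0.10 (adjusted p = 0.0293), while the list's median was -0.18 over 6 genes. Both also act in mesenchymal and vessel cells. The calls of Hopx (adjusted p = 0.0573 to 0.0673) and Gata6 (0.0626 to 0.0828) were lost without any 1 array but WT replicate 1, and that of Sox9 (0.0758 to 0.0904) without any but WT replicate 3.
General epithelial genes had 5 kept, of which Cldn7 fell, by 0.48 ± 0.11 on the log2 scale (adjusted p = 0.0498), with detection on 1 NDST array and all 3 WT arrays; that call was lost in 14 of 15 alternatives, among them leaving out any array but WT replicate 1 (adjusted p = 0.114 to 0.128). Lsr, on no WT array and so kept only through the NDST arrays, was at least 1.17-fold higher and did not pass. The keratins Krt8 and Krt18 differed by -0.03 and -0.13, and the sign of Krt8 turned under median scaling and without normalization. Mesothelial genes had 5 kept and 0 past the threshold, by limma, and 0 at an unadjusted p under 0.05. The squamous and oesophageal list kept only Ly6d (-0.29), and the thyroid and thymus list 1 gene (0.17); neither passed, and Tg and Pax8, which mark thyroid, were on no array.

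**Figure D2:**
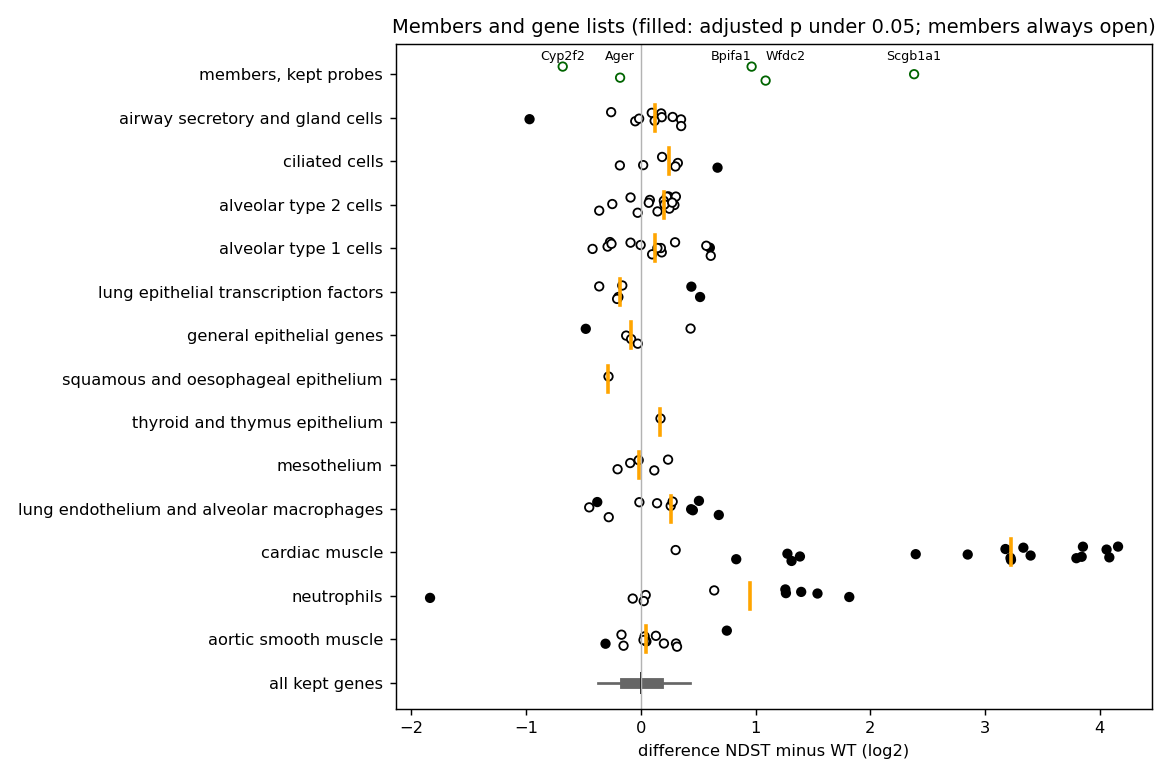
Log2 difference, NDST minus WT, of each kept gene by list; filled points have an adjusted p under 0.05, orange bars are list medians, member points (green) are drawn open whatever their p, since the members were chosen on this contrast, and the grey box shows the spread of all kept genes. Cardiac genes centre on 3.22 and the epithelial lists near 0.

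Genes of other cells moved with genotype in the same arrays. The lists used here too were drawn up with earlier results of these data known, so their counts are a description. Of 18 kept cardiac muscle genes 17 rose (94.4%), beside 4.61% of all kept genes, with a median of 3.22. Their summed linear intensity, offset removed, was 25035 to 25613 in NDST and 2345 to 2435 in WT. Counted among them are Hamp, the hepcidin gene, at 3.22, and Pln, which was kept only through the NDST arrays. Actc1, cardiac actin, rose by 3.84 (2.49 by its other kept probe) and Cox6a2, a muscle cytochrome oxidase subunit, by 4.06. Myh7, a slow muscle myosin, was on no array. Neutrophil genes had 10 kept, 5 that rose (50%) and 1 that fell (10%), beside 4.61% and 2.74% of all kept genes. Their sums were 1506 to 1538 in NDST and 920 to 963 in WT. S100a8 rose by 1.40 and Lcn2 fell by 1.84. Camp and Ngp, on no WT array and so kept only through the NDST arrays, were at least 2.70-fold and 1.97-fold higher in NDST. The neutrophil count and sums include both, so the filter itself favoured a rise there. The list of lung endothelium and alveolar macrophages had 11 kept. Of these, 4 rose (36.4%) and 1 fell (9.09%), beside 4.61% and 2.74% of all kept genes. Cldn5 (0.51), Ptprb (0.68), Tmem100 (0.44) and Chil3 rose and Car4 fell (-0.38). Cldn5, Ptprb, Tmem100 and Car4 were detected on every WT aorta array, so they are not read here as particular to lung. Chil3, chosen after its values were seen and kept only through the NDST arrays, was at least 1.14-fold higher. Marco and Siglecf, which mark alveolar macrophages, were on no array. With 1 array left out, the call of Cldn5 was lost without NDST replicate 2 (adjusted p = 0.0529) or 3 (0.0527), Ptprb without any array but WT replicate 2 (0.0552 to 0.0826), and Tmem100, Car4 and Chil3 without any 1 array (0.053 to 0.117). The part of these cells in the values of Scgb1a1, Wfdc2, Bpifa1 and Cyp2f2 was not tested. In bulk tissue, fewer cells of a type and less RNA per cell cannot be told apart.

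The genes nearest to Scgb1a1 in profile were taken by the root mean square difference of centred log2 values over the 6 arrays, as a description. These were Myom2 (0.097), Myoz2 (0.129), Pln (0.132), Ckmt2 (0.171) and Corin (0.173). Myoz2, a sarcomere protein, differed by 2.15 ± 0.09 (SE), and Ckmt2, a mitochondrial creatine kinase, by 2.58 ± 0.14. Pln, which restrains the calcium pump of heart muscle, was at least 4.06-fold higher in NDST. Myom2, Pln and Corin were detected on no WT array, so their distance and rank rest in part on background readings; Myoz2 and Ckmt2 were detected on all 6. With 2 groups of 3 arrays, any gene with a like difference lies near.

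**Figure D3:**
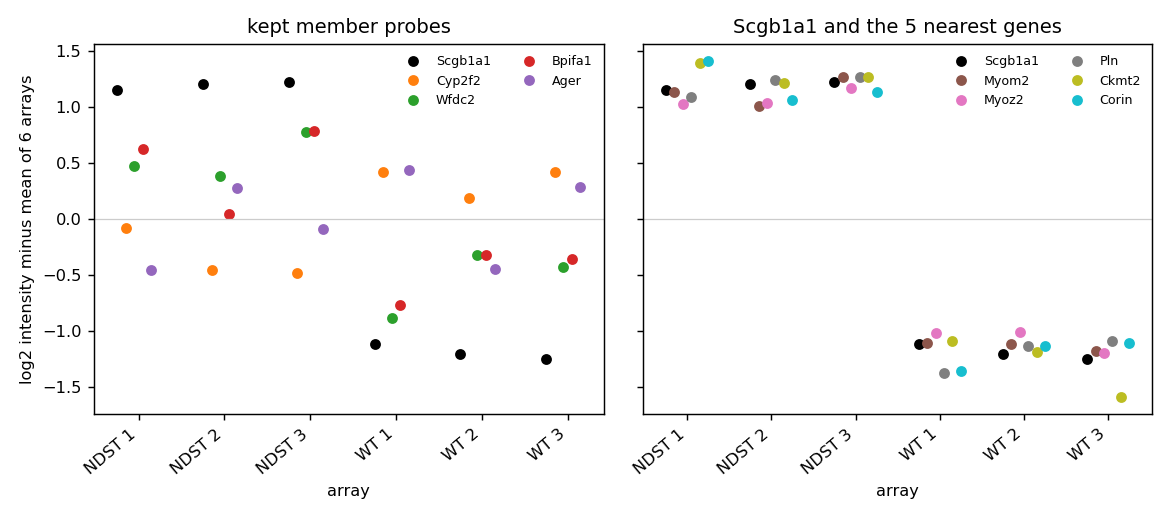
Centred log2 intensity on each NDST and WT array for the kept members (left) and for Scgb1a1 with its 5 nearest genes (right). Scgb1a1 and its neighbours lie above 0 on all NDST arrays and below on all WT arrays, Cyp2f2 the opposite way, and Ager shows no order by genotype.

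Relatives of the members by symbol were chosen after the values were seen. All 13 probes of 10 other Scgb genes were not kept. Sftpd, the surfactant collectin, was detected on 2 NDST arrays and 1 WT array and differed by 0.21 ± 0.14 (adjusted p = 0.389, limma). Bpifb1, a Bpifa1 relative of airway glands, had 2 probes kept; one rose, by 0.83 ± 0.17 (adjusted p = 0.0386), on no WT array, at least 1.24-fold higher in NDST, and the other differed by 0.35 ± 0.14 (adjusted p = 0.160). Of 10 kept Cyp2 genes, Cyp2a5 (0.71 ± 0.14, adjusted p = 0.0326) and Cyp2d9 (0.56 ± 0.12, adjusted p = 0.0424) rose, beside 4.61% of all kept genes. Both were on no WT array and at least 1.30-fold and 1.19-fold higher. No other Cyp2a5 probe was kept: a second was detected on 2 NDST arrays and the rest on no array. The probes of Bpifb1, Cyp2a5 and Cyp2d9 that rose were kept only through their NDST arrays, so the filter itself favoured a rise. Wfdc17 fell, by 1.02 ± 0.15 (adjusted p = 0.0125), where its relative Wfdc2 was higher. The Bpifb1 call was lost in 8 of 15 alternatives, that of Cyp2a5 in 8 and that of Cyp2d9 in 12. Left-out arrays that ended them were any but NDST replicate 1 for Bpifb1 (adjusted p = 0.0536 to 0.0993), any but NDST replicate 2 for Cyp2a5 (0.0517 to 0.0963) and any for Cyp2d9 (0.0628 to 0.11). The Wfdc17 call was lost without NDST replicate 2 (0.0549).

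Scgb1a1, Wfdc2, Bpifa1 and Cyp2f2 kept their sign in all 16 alternatives, and Ager in 15. Scgb1a1 ranged from 1.73 to 2.52 over 16 alternatives and Cyp2f2 from -0.81 to -0.40. Without background correction, Wfdc2 came to 0.33, Bpifa1 to 0.31 and Cyp2f2 to -0.41; in the authors' processed values they were 0.33, 0.32 and -0.40. With an offset of 50, Wfdc2 was 0.66 and Bpifa1 0.62. Ager ranged from -0.45 to 0.001.

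**Figure D4:**
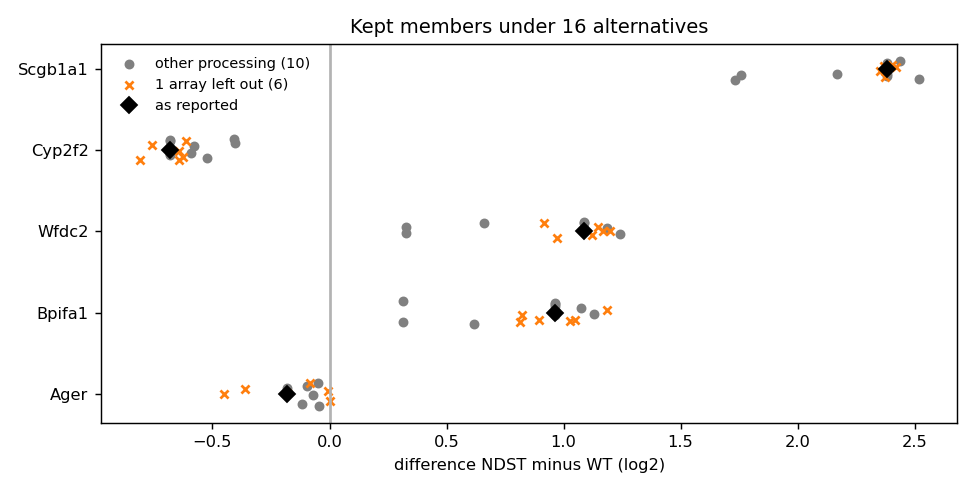
Log2 difference, NDST minus WT, of the 5 kept members as reported (diamonds), under 10 other ways of processing (grey) and with 1 array left out (orange crosses). Scgb1a1, Wfdc2 and Bpifa1 stay above 0, Cyp2f2 stays below 0, and Ager touches 0.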

How the data were processed

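Aorta RNA was read on 3 NDST and 3 WT Illumina arrays. The deposited table holds average bead intensity, not normalized between arrays, and a detection p-value per probe, per the file headers. The submitters' processing notes name GenomeStudio, without version or step. A second deposited table of intensity ranked the probes of every array identically (Spearman correlation 1), with medians of 134.2 to 134.4 in NDST and 135.8 to 135.9 in WT; how it was scaled is not stated, and it served as an alternative.

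With limma 3.58.1 in R 4.3.3, background was corrected by normexp from the detection p-values (neqc, offset 16), arrays were quantile normalized and log2 values taken from the deposited intensities; the offset understates fold changes of dim probes. Probes detected at p under 0.05 on at least 3 of 6 arrays were kept (17954 of 45281) and tested two-sided with lmFit and eBayes, Benjamini-Hochberg adjusted over all kept probes. The fit and the adjustment were tried on simulated log2 values of the kept probes. Background correction, normalization and the detection filter were not part of that trial. Median intensity was 133.9 to 141.5 in NDST and 130.0 to 135.9 in WT. Precision is limited by the number of arrays; the median SD between arrays of 1 genotype was 0.13 in log2. The annotation gave 1 gene for 34885 probes, several for 18 and none for 10378; 10 symbols were updated through RefSeq.

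A gene is its brightest kept probe. "At least" folds set the NDST mean against the WT mean of, per array, the higher of the lowest detected value and the gene's own. The members and lists were chosen with earlier results of these data known. All member probes and the 5 genes nearest to Scgb1a1 are named. From each list, up to 4 genes of lowest p and the 3 brightest could be named, but not all of them are. The choice among these, and that of all other genes, was made after their values were seen.

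Same-numbered arrays of the genotypes were not treated as paired, since the sample titles name no pairing. Their deviations correlated at -0.015, 0.011 and 0.02, which cannot show how the mice or arrays were handled.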

Additional observations from a re-analysis of the deposited data

How the results depend on the processing

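The count of kept probes past the threshold was 1336. It was 3145 without background correction, 2190 with an offset of 50, 2711 without normalization between arrays, 3535 in the authors' processed values and 3075 with an intensity trend. It was 687 when probes detected on at least 1 array were tested, 722 with no filter, and 401 to 536 with 1 array left out (462, 411 and 401 without NDST replicates 1, 2 and 3, and 508, 496 and 536 without WT replicates 1, 2 and 3). With the replicate number as a block it was 364, though the sample titles do not say that the numbers pair the arrays. Of the 63 epithelial list genes 6 passed, against 17 without background correction, 15 without normalization, 14 in the authors' values, 15 with an intensity trend, 2 with the replicate block and 2 to 5 with 1 array left out. When probes detected on at least 1 array were tested, 3 of a larger set of 92 list genes passed. Krt8, at -0.03, came to 0.085 under median scaling, 0.13 without normalization, and -0.13 to 0.13 with 1 array left out. The cause of these changes was not tested. Member probes detected on all 3 arrays at a detection p under 0.01 numbered 4 in NDST and 2 in WT. The calls of Hopx, Gata6, Sox9, Ptprb, Tmem100 and Car4 were lost in 6, 7, 8, 6, 7 and 11 of 16 alternatives; Hp and 1110017D15Rik kept theirs in all 16. Signal over background limits what can be said of the surfactant genes, whose readings lay among undetected probes.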
